A study of Mus musculus with 16 samples.

Results

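The genes described here are the hypoxia-inducible factors and a group of their targets in mouse cortical bone. They were chosen by symbol: Hif1a, Epas1, Vegfa, Adm, Slc2a1, Ndrg1, Ankrd37, Egln1, Egln3 and Bnip3. Of these 10 symbols, 7 matched a row among the 36829 features of the files used here, and all 7 passed the filter on low values. Egln1, Egln3 and Bnip3 were not analysed here. Female C57Bl/6 mice of 11 weeks were either hindlimb unloaded for 7 days (HLU) or kept at normal weightbearing (Control), with 8 mice and 8 libraries in each group. No gene was altered and no drug treatment was under study. HLU mice were under isoflurane anesthesia when a tail harness was fitted, and the methods state no anesthesia for Control mice. The part of anesthesia in the differences between groups was not tested. The hind limbs of HLU mice were held off the floor by this harness, so the model unloads the limb for 1 week and says nothing of longer disuse. Total RNA came from the femur after its ends had been cut off and its marrow flushed.

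Cells sense oxygen through prolyl hydroxylases, which mark the alpha subunits of the hypoxia-inducible factors for destruction by the von Hippel-Lindau protein when oxygen is present. When oxygen is short, the alpha subunits accumulate as protein, pair with Arnt and bind DNA at short elements with the core sequence ACGTG or GCGTG, raising transcription of genes for vessel growth, glucose uptake and glycolysis. In bone, the pathway is known for coupling vessel growth to bone formation and for acting in osteocytes, which sit in mineralized matrix. Much of the control of the alpha subunits is on the protein, which was not measured here. Pfkfb3, which encodes an enzyme that makes the glycolysis activator fructose 2,6-bisphosphate, is itself known as a hypoxia-inducible gene, and the relation of the 7 genes to Pfkfb3 between mice was therefore also taken.

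The values are RPKM, reads scaled by gene length and library size. Differences between groups are given on the scale of log2(RPKM + 0.1), as HLU minus Control. Libraries had been scaled by 7067512 to 21363584 reads, a 3.02-fold range, with Control 2 and HLU 5 the smallest. The markers of cells that cortical bone could hold were measured alongside. All 6 osteocyte markers (Dmp1, Mepe, Sost, Phex, Fgf23, Pdpn) passed the filter, with a summed level of 179 to 589 RPKM in Control mice and 263 to 598 RPKM in HLU mice. Markers of marrow and blood cells were also present. The 7 neutrophil markers that could be used summed to 17827 to 38358 RPKM in Control mice and 12692 to 45222 RPKM in HLU mice, and the 11 erythroid markers to 2353 to 5353 RPKM and 1099 to 3006 RPKM. In whole bone, fewer cells of a type and less RNA per cell cannot be told apart.

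The windows of 250 bases before the start of Vegfa, Adm and Ankrd37 are shown because these 3 targets gave the highest correlations between mice among the 7 genes, as described later. They come from RefSeq on GRCm38.p6, read 5′ to 3′ on the strand of the gene, and capitals mark ACGTG or GCGTG on either strand (CACGT and CACGC are the same letters on the other strand, and overlapping matches were counted separately). The Vegfa window is chr17:46032378-46032627 on the minus strand, the Adm window chr7:110627407-110627656 on the plus strand and the Ankrd37 window chr8:45999851-46000100 on the minus strand.
Vegfa: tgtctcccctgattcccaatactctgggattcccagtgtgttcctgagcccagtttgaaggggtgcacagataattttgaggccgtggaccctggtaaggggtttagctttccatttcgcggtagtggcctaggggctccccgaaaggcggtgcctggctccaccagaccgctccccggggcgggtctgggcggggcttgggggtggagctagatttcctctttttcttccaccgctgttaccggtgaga
Adm: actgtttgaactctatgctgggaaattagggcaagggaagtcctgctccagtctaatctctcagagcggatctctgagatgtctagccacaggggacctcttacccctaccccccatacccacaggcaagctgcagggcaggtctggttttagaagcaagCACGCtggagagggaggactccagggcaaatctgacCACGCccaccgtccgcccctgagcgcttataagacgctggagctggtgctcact
Ankrd37: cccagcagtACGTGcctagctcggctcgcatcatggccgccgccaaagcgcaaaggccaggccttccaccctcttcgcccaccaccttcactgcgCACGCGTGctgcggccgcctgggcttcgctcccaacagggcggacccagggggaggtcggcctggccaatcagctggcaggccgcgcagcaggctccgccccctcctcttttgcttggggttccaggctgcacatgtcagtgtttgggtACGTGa
The core letters occurred 4 times in the Ankrd37 window, 2 times in the Adm window and 0 times in this Vegfa window. A further Vegfa start in the same table had 2 matches in its window, Slc2a1 had 2 and Hif1a had 3. The Pfkfb3 windows held 3 (chr2:11502091-11502340) and 1 (chr2:11553930-11554179). Of 32851 windows of the same length over all RefSeq promoters in the table, 38.6% held at least 1 match, 16.7% at least 2 and 2.58% at least 4. A match is a string of letters, not a shown binding site, and elements farther than 250 bases from a start were not searched. Epas1 and Ndrg1 had no window in the table.

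None of the 7 genes differed between HLU and Control bone beyond the spread between mice. At an unadjusted limma p under 0.05 with at least a 1.2-fold change, 0 of the 7 passed, while 5.87% of the 16973 features tested did (1.11% higher and 4.76% lower in HLU mice). With Benjamini-Hochberg adjustment over all features, 0 of the 7 and 0 of 16973 passed an adjusted p of 0.1 with that change, against 1049 features with an unadjusted p under 0.05. The median log2 fold change over all features was -0.10, and 32.1% of them were above 0. For the 7 genes the median was 0.03, with 5 above 0. Pfkfb3 itself ran from 7.89 to 15.9 RPKM in Control (median 11.3) and from 14.4 to 25.1 RPKM in HLU (median 18.1). For Pfkfb3 the log2 fold change of 0.69 (standard error 0.15) had an exact permutation p of 0.000622 and a limma adjusted p of 0.649, and each of the 8 HLU mice exceeded the Control median. Pfkfb3 was chosen with earlier results of these data known, so its exact permutation p is not that of a gene picked in advance.

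**Figure D1:**
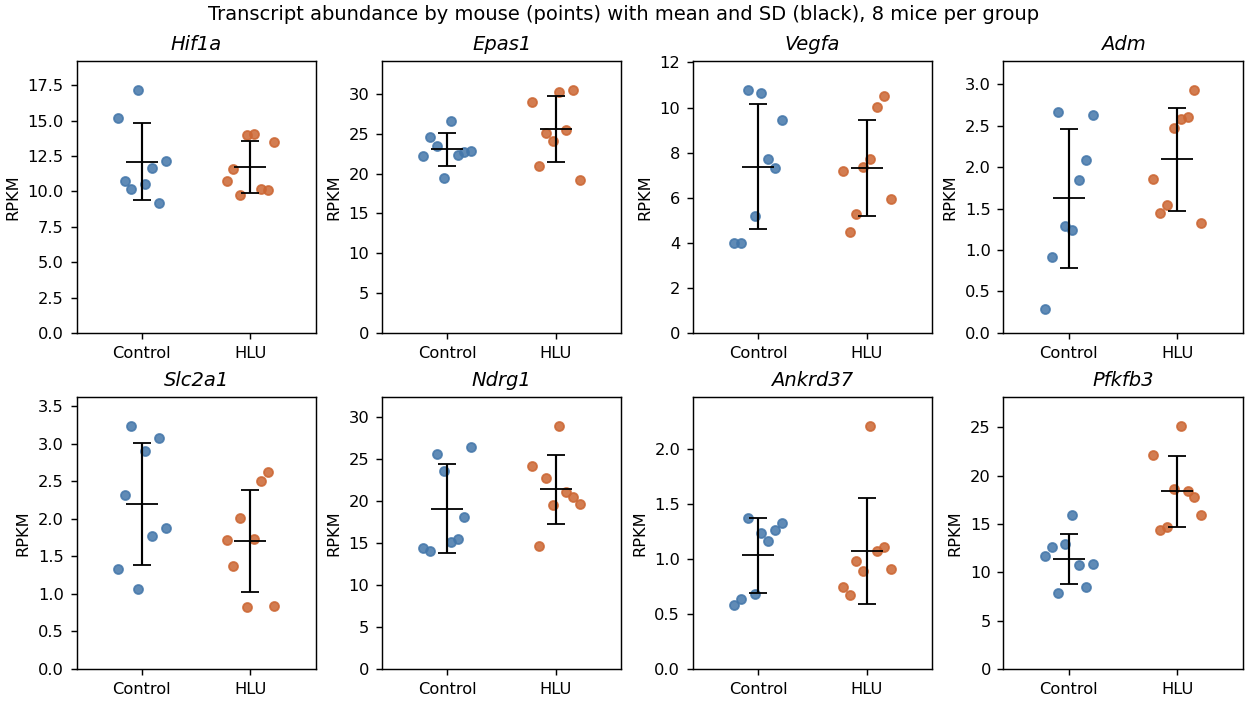
RPKM of the 7 hypoxia genes and Pfkfb3 in each mouse (points, vertical axis in RPKM from 0) for Control and HLU, with the group mean and SD in black. The groups overlap in every panel, and Pfkfb3 has the clearest separation, with 5 HLU mice above every Control mouse.

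Epas1, which encodes the alpha subunit HIF-2alpha and is strongly expressed in endothelial cells, was the most abundant of the 7 genes. It ranged from 19.4 to 26.7 RPKM in Control mice (median 22.8) and from 19.2 to 30.5 RPKM in HLU mice (median 25.3). In HLU, 3 mice (1, 5 and 7) lay above every Control mouse and HLU 8 lay below all of them, so the HLU values were wider on both sides. Epas1 was higher by 0.14 on the log2 scale, within the spread between mice (standard error 0.11, 95% interval -0.09 to 0.37, exact permutation p = 0.176, limma adjusted p = 0.764). Epas1 also varied least between mice. Its within-group SD of 0.19 on the log2 scale was at percentile 6.68 of all features tested, where features of high abundance tend to vary less. The gene lies at chr17:86753700-86833410 on the plus strand of GRCm38 in GENCODE M21, and 924 to 2996 reads per mouse were recovered on it.

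Hif1a, the gene of HIF-1alpha, had a lower level per length than Epas1. Control mice ran from 9.22 to 17.2 RPKM (median 11.2) and HLU mice from 9.73 to 14.0 RPKM (median 11.2). All 8 HLU mice lay within the Control range, whose upper end was set by Control 1 and Control 4. Its log2 fold change was -0.03 (95% interval -0.32 to 0.26, standard error 0.14, exact permutation p = 0.818, limma adjusted p = 0.957), and the sign turned under median-of-ratios scaling (0.06) and after adjustment for GC content (0.07). With the erythroid and neutrophil marker scores as covariates it was -0.28 and passed the unadjusted rule (unadjusted p = 0.0472, limma adjusted p = 0.205), in a fit in which 21.7% of all features did. The annotation places the gene at chr12:73901375-73947530, with exons overlapped by Gm15283 on the other strand and Gm49321 on the same strand. The counting was not stated to use strand, so reads of such overlapping genes cannot be told apart.

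Vegfa, the main growth factor for blood vessels, was not separated between groups. Control mice had 3.98 to 10.8 RPKM (median 7.52) and HLU mice 4.46 to 10.5 RPKM (median 7.29). Every HLU mouse lay within the Control range. The difference of 0.03 on the log2 scale (standard error 0.24, exact permutation p = 0.897, limma adjusted p = 0.976) had a 95% interval of -0.49 to 0.55, so changes well beyond 1.2-fold in either direction lie inside it. The gene is at chr17:46016993-46032369 on the minus strand.

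Adm encodes adrenomedullin, a peptide that widens vessels and acts on endothelial cells. It had the largest log2 fold change of the 7 genes and the widest spread. Control mice ran from 0.293 to 2.66 RPKM (median 1.57) and HLU mice from 1.33 to 2.93 RPKM (median 2.16). In Adm, 5 HLU mice lay above the Control median, 1 of them (HLU 7) above every Control mouse, and Control 1 lay far below the others. HLU exceeded Control by 0.51 on the log2 scale (standard error 0.34, 95% interval -0.22 to 1.24, exact permutation p = 0.184, limma adjusted p = 0.751). Without Control 1 it was 0.23. With the erythroid and neutrophil marker scores as covariates it was 0.92 (limma adjusted p = 0.134) and passed the unadjusted rule. Only 8 to 77 reads per mouse were recovered on Adm, which lies at chr7:110627661-110629820.

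Slc2a1, the gene of the glucose transporter GLUT1, had the lowest log2 fold change of the 7 genes. Control mice had 1.06 to 3.23 RPKM (median 2.10) and HLU mice 0.831 to 2.62 RPKM (median 1.73). HLU 4 and HLU 8 lay below every Control mouse, and the other 6 within the Control range. It was -0.36 (standard error 0.28, 95% interval -0.95 to 0.23, exact permutation p = 0.228, limma adjusted p = 0.764), and with the erythroid and neutrophil scores as covariates it turned to 0.06. Between 46 and 194 reads per mouse were recovered. The gene lies at chr4:119108711-119137983 and shares exon bases with Gm12868 on the other strand.

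Ndrg1, a stress response gene widely used as a marker of hypoxia, was second in abundance. Control mice ran from 14.0 to 26.4 RPKM (median 16.8) and HLU mice from 14.7 to 28.9 RPKM (median 20.8). In all, 7 HLU mice lay above the Control median, but 3 Control mice (3, 4 and 8) reached 23.6 to 26.4 RPKM and only HLU 5 exceeded them. The difference was 0.19 on the log2 scale (standard error 0.17, 95% interval -0.17 to 0.54, exact permutation p = 0.281, limma adjusted p = 0.772). The gene is at chr15:66929318-66969640 on the minus strand, with Gm17035 and Gm2895 on the other strand over its exons.

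Ankrd37, an ankyrin repeat gene known as a direct HIF target, had the lowest level of the 7. Control mice had 0.579 to 1.38 RPKM (median 1.198) and HLU mice 0.673 to 2.20 RPKM (median 0.945). HLU 5 was far above the other mice at 2.20 RPKM, and the other 7 were under the Control median. Its log2 fold change of 0.03 (standard error 0.24, 95% interval -0.49 to 0.56, exact permutation p = 0.888, limma adjusted p = 0.974) was -0.12 without HLU 5 and -0.20 without the 2 smallest libraries. It rested on 13 to 66 reads per mouse, and at chr8:45996902-46005707 its exons overlap Lrp2bp and Ufsp2 on the other strand.

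**Figure D2:**
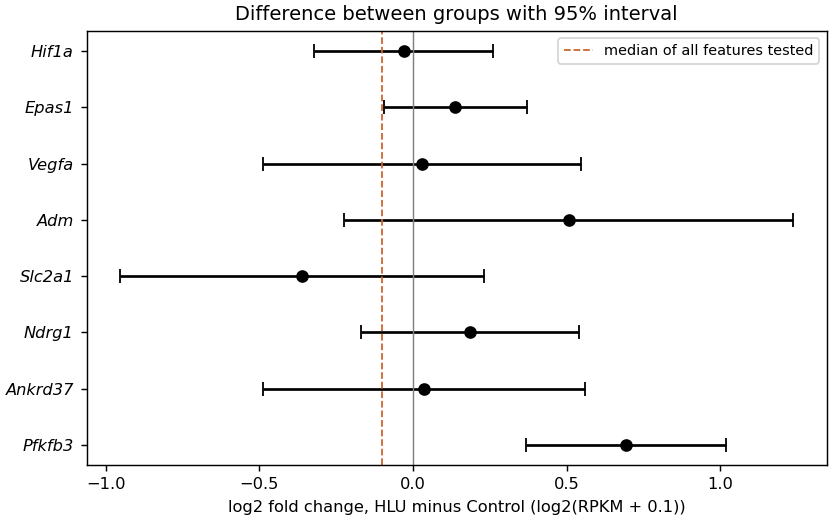
Log2 fold change (HLU minus Control, log2(RPKM + 0.1)) of each gene with its 95% interval. The intervals of the 7 hypoxia genes all include 0, with fold changes from -0.36 for Slc2a1 to 0.51 for Adm on the log2 scale, while that of Pfkfb3 does not. The dashed line marks the median of all features, -0.10.

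Taken over all 16 mice, the levels per length ran from 24.3 RPKM for Epas1 and 20.2 RPKM for Ndrg1 through 11.9 RPKM for Hif1a and 7.35 RPKM for Vegfa to 1.95 RPKM for Slc2a1, 1.86 RPKM for Adm and 1.05 RPKM for Ankrd37. Neighbours in this order differed within mice by a two-sided exact sign-flip permutation test, with 1 exception. Slc2a1 and Adm could not be told apart (exact permutation p = 0.619, with Slc2a1 higher in 6 of 16 mice). Epas1 exceeded Ndrg1 in 12 of 16 mice (exact permutation p = 0.00519).

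Other genes of the pathway, from lists written by hand with earlier results of these data known, showed 0 calls as well. Of 84 genes written down, 71 were among the features listed and 68 passed the filter, and 0 of these 68 passed the unadjusted rule in either direction (5.87% of all features did). Their median log2 fold change was -0.01, with 33 above 0. Partners and turnover genes of the factors (13 kept) ran from -0.26 for Tceb2, an elongin subunit of the von Hippel-Lindau complex, to 0.39 for Arnt2. Arnt, the shared partner subunit, stood at 7.002 ± 0.823 RPKM in Control and 7.26 ± 0.784 RPKM in HLU (SD, n = 8 each), and this gene was chosen after its values were seen. Receptors of the secreted factors (6 kept) ran from -0.22 for Calcrl, which forms the adrenomedullin receptor, to 0.15 for Flt1, a VEGF receptor.

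The glycolytic targets had the lowest median of the lists. The 8 kept had a median log2 fold change of -0.27, with 2 above 0, from -0.44 for Hk1, a hexokinase, to 0.06 for Slc16a3, a lactate transporter. For Hk1 the values were 13.9 ± 4.12 RPKM in Control and 10.8 ± 4.95 RPKM in HLU (SD, n = 8 each, exact permutation p = 0.128, limma adjusted p = 0.744). A further 12 glycolytic genes of the list, among them Ldha, Pgk1 and Hk2, were not analysed here. Of 41 other targets kept, 20 had a log2 fold change above 0. They ran from -0.45 for Tfrc, the transferrin receptor that erythroid cells carry at high level, to 0.46 for Rora, a nuclear receptor. Tfrc was 98.8 ± 33.6 RPKM in Control and 73.4 ± 26.6 RPKM in HLU (SD, n = 8 each, limma adjusted p = 0.744). The erythroid marker score, HLU minus Control, was -0.58 on the log2 scale (exact permutation p = 0.0524), and its part in the Tfrc value was not tested.

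Whether the genes follow Pfkfb3 was taken within groups, since Pfkfb3 differed between them. Each value was centred on its group mean and related to centred Pfkfb3 over the 16 mice. By limma with group and Pfkfb3 as terms, 0 of the 7 genes had an unadjusted p under 0.05 for the slope, against 3.88% of 16972 features (1.56% with a positive slope), and 0 features had an adjusted p under 0.1. The median Pearson's r with Pfkfb3 over all features was -0.06.

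The alpha subunits had the highest correlations with Pfkfb3. For Epas1, Pearson's r was 0.487 (permutation p = 0.0511) and Spearman's rho 0.333 (permutation p = 0.228), with a slope of 0.31 log2 per log2 of Pfkfb3 (standard error 0.18, limma adjusted p = 0.945). For Hif1a, r was 0.371 (permutation p = 0.187) and rho 0.476 (permutation p = 0.0789), with a slope of 0.32 (standard error 0.23, limma adjusted p = 0.945). Without Control 3 and Control 5, the mice farthest from the median of Pfkfb3, r was 0.503 for Epas1 and 0.478 for Hif1a. These were 2 of 7 relations computed.

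The 5 targets showed little relation over the 16 mice. Pearson's r was 0.05 for Vegfa (permutation p = 0.859), 0.05 for Ankrd37 (permutation p = 0.845), 0.01 for Ndrg1 (permutation p = 0.960), -0.12 for Slc2a1 (permutation p = 0.669) and -0.18 for Adm (permutation p = 0.556). Spearman's rho was 0.13, -0.11, 0.08, -0.24 and -0.10 in the same order, with permutation p from 0.398 to 0.780. Behind these values the groups had opposite signs. In Control mice r with Pfkfb3 was below 0 for all 5 targets, from -0.25 for Vegfa to -0.49 for Adm. In HLU mice it was above 0 for all 5, from 0.16 for Slc2a1 to 0.775 for Ndrg1. The share of all features with such signs was not taken. The targets also varied together between mice, as described later, so their signs are not 5 separate results. In HLU mice alone, Ndrg1 (exact permutation p = 0.0235) and Epas1 (r = 0.709, exact permutation p = 0.0480) had the highest r, with n = 8. In Control mice alone, the lowest exact permutation p of the 7 was 0.219, for Adm.

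The difference of the slopes between groups was tested with an interaction term. Ndrg1 passed an unadjusted p of 0.05, as did 2.02% of all features. Its slope was -0.54 in Control and 0.78 in HLU mice, a difference of 1.32 (standard error 0.53, limma adjusted p = 0.970). For Ankrd37 it was 1.71 and for Adm 2.31, and neither passed that threshold (limma adjusted p = 0.970 for both). HLU 5 had the highest Pfkfb3, Ndrg1 and Ankrd37 of all 16 mice and the smallest HLU library. The Ndrg1 difference lost its unadjusted call without Control 3 (1.07), Control 5 (1.30), HLU 2 (1.09) or HLU 5 (1.16). It also lost the call in 3 of 13 other settings of the fit. Among them were the fit without the 2 smallest libraries (1.07) and the fit with the erythroid and neutrophil scores as covariates.

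**Figure D3:**
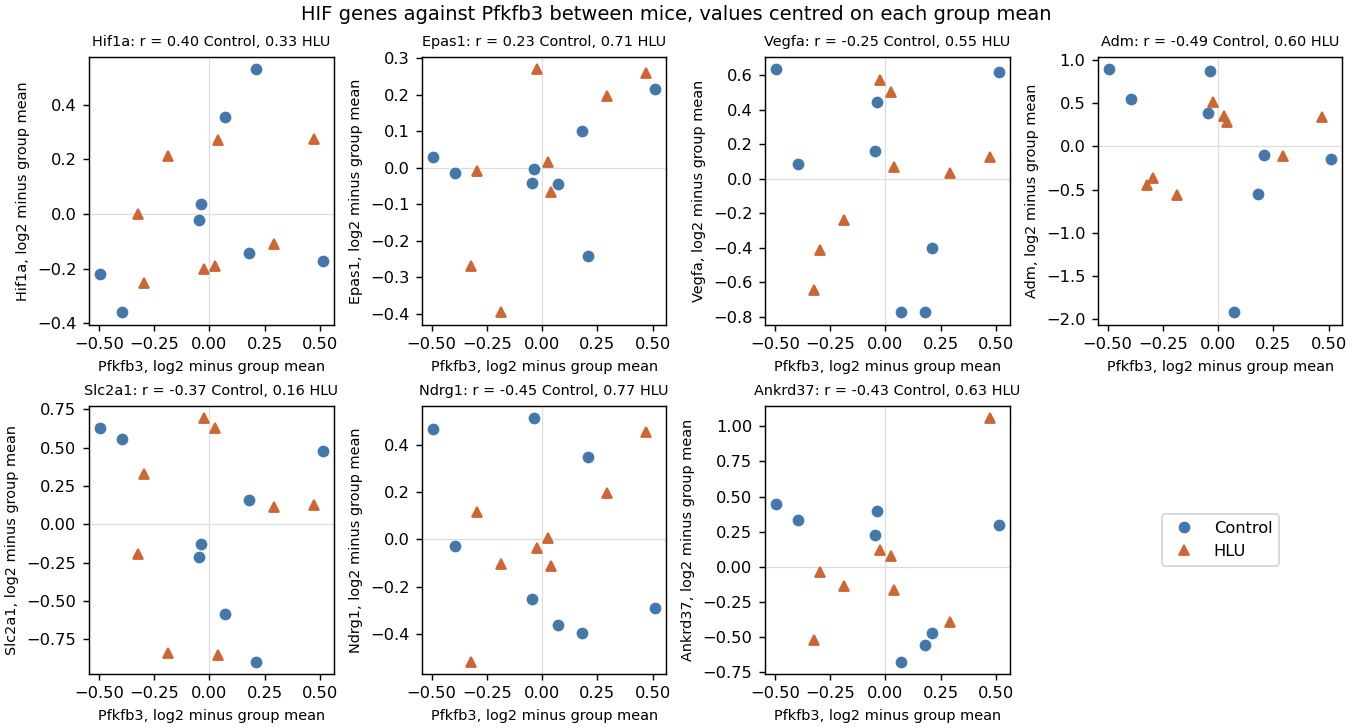
Each of the 7 genes (vertical axis) against Pfkfb3 (horizontal axis) over 16 mice, both as log2(RPKM + 0.1) minus the group mean, with circles for Control and triangles for HLU and Pearson's r of each group above the panel. For Ndrg1 the HLU mice run upward (0.775) and the Control mice downward (-0.45).

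The libraries differed in how their values depended on the GC content of transcripts, and this touched Hif1a and Slc2a1 most. The GC slope of a library, the change of its log2 values per 10 percentage points of GC relative to the mean of all libraries, ran from -0.59 to 0.40. It did not separate the groups (difference 0.0025, exact permutation p = 0.989). Hif1a, with a transcript GC content of 41.3% at percentile 11.2 of the features, was lower where the slope was higher (within groups Pearson's r = -0.864, permutation p = 5e-05, Spearman's rho = -0.821, permutation p = 0.0004). Slc2a1, at 54.0% GC and percentile 76.5, was higher (r = 0.904, permutation p = 1e-05, the smallest that the permutations can give, rho = 0.881). Without Control 4 and HLU 4, r was -0.828 for Hif1a and 0.847 for Slc2a1. By limma 45.5% of all features were related to the GC slope at an adjusted p of 0.1, and Hif1a, Slc2a1 and Vegfa were among them. Pfkfb3 was not related to it (r = -0.15, permutation p = 0.594).

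With the GC curve of each library taken off, an alternative chosen after seeing the data, both alpha subunits correlated with Pfkfb3 between mice. Pearson's r with Pfkfb3 was 0.751 for Epas1 (permutation p = 0.00106, Spearman's rho 0.702, permutation p = 0.00524) and 0.717 for Hif1a (permutation p = 0.00392, rho 0.655, permutation p = 0.0111). It was above 0 in each group alone, at 0.698 in Control and 0.849 in HLU mice for Epas1 and 0.630 and 0.850 for Hif1a. Without Control 3 and Control 7 it was 0.774 and 0.669. The limma slope was 0.51 for Epas1 (unadjusted p = 0.00166) and 0.25 for Hif1a (unadjusted p = 0.0190), with an adjusted p of 0.412 for both, in a fit in which 11.3% of 15448 features had an unadjusted p under 0.05. Median-of-ratios scaling and quantile normalization also gave Epas1 an unadjusted p under 0.05 (slopes of 0.43 and 0.49, with 8.58% and 11.0% of features called).

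Marker scores of other cells, each the mean of the centred log2 values of a marker list, moved with this relation after the same adjustment. Epas1 (Pearson's r = -0.751, permutation p = 0.00446, Spearman's rho = -0.512), Hif1a (r = -0.722, permutation p = 0.00053, rho = -0.679) and Pfkfb3 (r = -0.645, permutation p = 0.00613, rho = -0.583) all ran against the erythroid score, where r had been -0.47, -0.31 and -0.549 as deposited. Without HLU 2 and HLU 3, r was -0.686, -0.557 and -0.472. The endothelial score went the other way, with an r of 0.745 for Epas1 (rho = 0.524), 0.548 for Hif1a (rho = 0.512) and 0.639 for Pfkfb3 (rho = 0.583). In the same order, r was 0.360, 0.354 and 0.371 in Control mice and 0.869, 0.772 and 0.881 in HLU mice. Without HLU 2 and HLU 8 it was 0.502, 0.604 and 0.525. With the neutrophil score, r was -0.537, -0.546 and -0.447. These p-values are unadjusted, and the part of these cells in the relation to Pfkfb3 was not tested.

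For the 5 targets, r with Pfkfb3 stayed between -0.18 for Adm and 0.14 for Vegfa over the 16 GC-adjusted values. Their slopes again differed in sign between groups, and the share of all features with such signs was again not taken. The difference had an unadjusted p under 0.05 for Vegfa, Adm, Ndrg1 and Ankrd37 (9.59% of features, adjusted p = 0.484 for each).

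**Figure D4:**
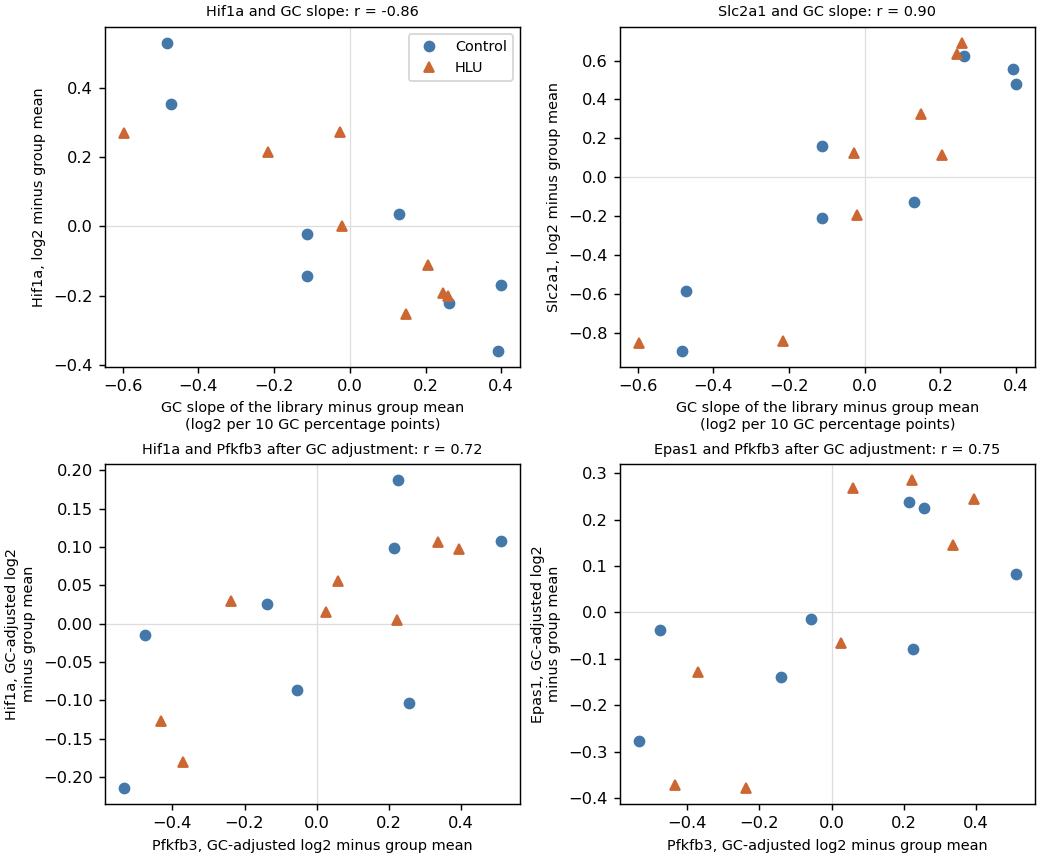
Top, Hif1a and Slc2a1 (log2 minus group mean) against the GC slope of the library minus its group mean, which run in opposite directions (r of -0.864 and 0.904). Bottom, GC-adjusted Hif1a and Epas1 against GC-adjusted Pfkfb3, each as log2 minus group mean, where both run upward in Control (circles) and HLU mice (triangles).

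Between mice, most pairs of the 7 genes varied in the same direction. As deposited, 16 of the 21 pairs of the 7 genes had a Pearson's r above 0 within groups, with a median of 0.451. Pairs of features at large had a median of 0.04, a 75th percentile of 0.374 and a 95th percentile of 0.747. Vegfa and Adm had the highest r and were alone above that 95th percentile (0.785, permutation p = 0.00029, rho 0.821, permutation p = 0.00046). Vegfa and Ankrd37 followed (0.720, permutation p = 0.00288, rho 0.786, permutation p = 0.00104), and then Adm and Ankrd37 (0.701, permutation p = 0.00052, rho 0.798, permutation p = 0.00102). Control 1 and Control 2 had low values of all 3. Without them r was 0.692 for Vegfa and Adm and 0.563 for Vegfa and Ankrd37, and without Control 1 and Control 3 it was 0.641 for Adm and Ankrd37. After GC adjustment these pairs had 0.755, 0.680 and 0.657. As deposited, r for Vegfa and Ankrd37 was 0.952 in Control and 0.426 in HLU mice (exact permutation p = 0.309 in HLU). For Adm and Ankrd37 it was 0.844 and 0.544 (exact permutation p = 0.143 in HLU). For Vegfa and Adm it was 0.773 and 0.886. The p-values of the pairs are unadjusted. Features at large span all GC contents, while the genes other than Hif1a lay between 50.4% GC (Ndrg1) and 54.0% GC (Slc2a1). No r for features at large was taken after GC adjustment, so the part of GC content in the higher median was not tested.

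Hif1a ran against its own target Slc2a1. As deposited, r was -0.869 (permutation p = 4e-05, rho -0.821, permutation p = 0.00042), at -0.959 in Control and -0.789 in HLU mice, and -0.808 without Control 1 and Control 4. After GC adjustment it was -0.21 (permutation p = 0.428). Epas1 and Slc2a1 went from 0.681 to 0.372, and Hif1a and Epas1 from -0.42 to 0.432. The pairs among Vegfa, Adm and Ankrd37 moved by less than 0.1 with the same adjustment.

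**Figure D5:**
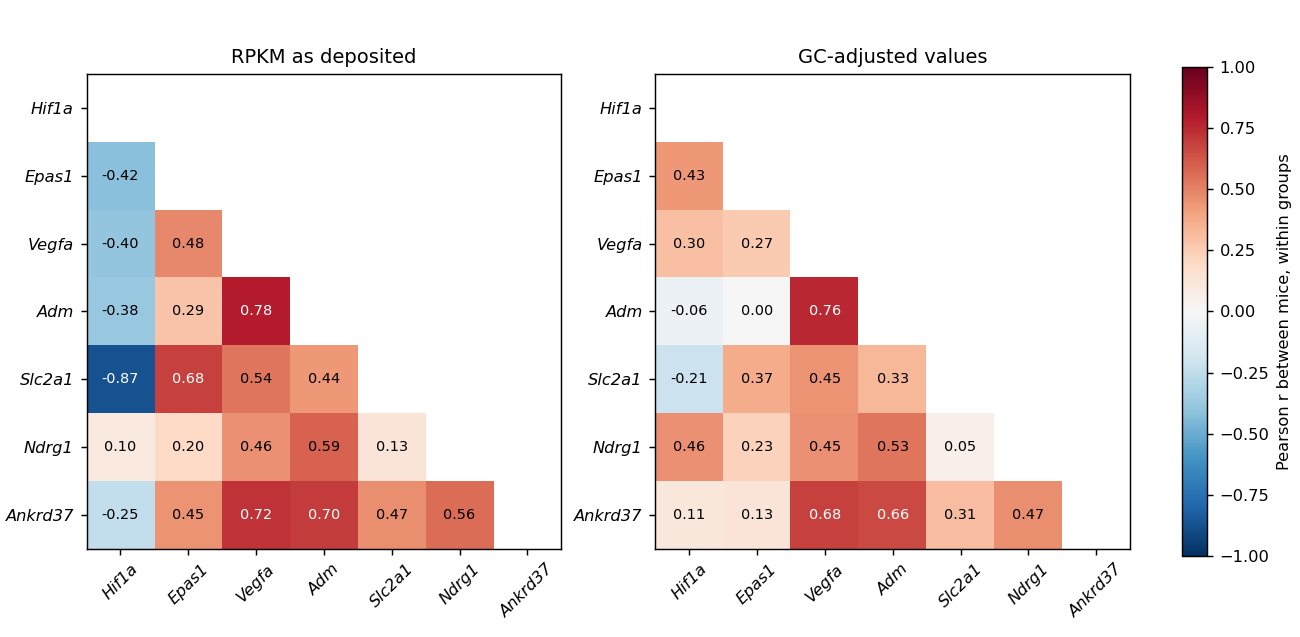
Pearson's r between each pair of the 7 genes over 16 mice, centred on group means, for RPKM as deposited (left) and GC-adjusted values (right), with blue below 0 and red above. The cell of Hif1a and Slc2a1 goes from -0.869 to -0.21, while that of Vegfa and Adm stays at 0.785 and 0.755.

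Several of the genes moved with marker scores of cell types between mice, as many features did. In all, 80 relations were computed for the 7 genes and Pfkfb3 with 10 lists. Ndrg1 followed the osteocyte score (Pearson's r = 0.866, permutation p = 0.00014, Spearman's rho = 0.786, permutation p = 0.00112, limma adjusted p = 0.0153, with 15.0% of features called), and r was 0.802 without Control 2 and HLU 2. Epas1 followed the endothelial score (r = 0.812, permutation p = 0.00049, rho = 0.869, permutation p = 0.00011, limma adjusted p = 0.0285, 27.8% of features called), and r was 0.752 without HLU 5 and HLU 8. It also ran against the neutrophil score (-0.619, limma adjusted p = 0.0583), at -0.417 without HLU 2 and HLU 7. The features most like Ndrg1 over the 16 mice were Dkk1 (r = 0.946), Sost (0.945) and Plekhh2 (0.943). Sost, the sclerostin gene, is 1 of the 6 osteocyte markers.

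Vegfa followed the adipocyte score (r = 0.789, limma adjusted p = 0.00618) and the osteocyte score (0.733, limma adjusted p = 0.0385) and ran against the neutrophil score (-0.760, limma adjusted p = 0.004), where 37.3%, 15.0% and 39.3% of features were called. It also followed the endothelial score (0.672, limma adjusted p = 0.0363) and ran against the macrophage score (-0.572, limma adjusted p = 0.0861, 22.5% of features called). After GC adjustment, r for Vegfa was -0.908 with the macrophage and -0.863 with the neutrophil score. It was then 0.763 with the adipocyte, 0.709 with the osteocyte and 0.645 with the endothelial score. The features most like Vegfa were Myoc (0.971), Dbndd2 (0.966) and Tulp3 (0.957). Adm followed the osteocyte score (0.719, limma adjusted p = 0.0417) and the adipocyte score (0.585, limma adjusted p = 0.0518), and its most alike features were Gm11522 (0.909), Rnd2 (0.895) and Myoc (0.864). After GC adjustment, r for Adm was 0.672 with the osteocyte, 0.533 with the adipocyte and -0.718 with the macrophage score. Ankrd37 followed the endothelial score (0.683, limma adjusted p = 0.0461) and the osteocyte score (0.644, limma adjusted p = 0.0903). After GC adjustment its r was 0.492 with the endothelial, 0.604 with the osteocyte and -0.648 with the macrophage score. Ankrd37 was most like Ppm1f (0.900), Gab1 (0.899) and Sdf2 (0.890). These features were picked for their likeness, so their r is a description.

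Slc2a1 followed the endothelial score (0.627, limma adjusted p = 0.0531) and the adipocyte score (0.553, limma adjusted p = 0.0742). As deposited, Hif1a had no relation to a cell type score at an adjusted p of 0.1. After GC adjustment, r for Slc2a1 was 0.586 with the endothelial and 0.423 with the adipocyte score. For Hif1a it then ran from -0.722 with the erythroid to 0.674 with the osteoblast score (permutation p = 0.00053 and 0.00721, unadjusted). With the osteoclast score it was 0.660 (permutation p = 0.00785, unadjusted). The share of all features so related after GC adjustment was not taken. For the alpha subunits and Slc2a1, the most alike features were Cytl1 (0.835), Dexi (0.827) and Fam20c (0.822) for Epas1, Zbtb33 (0.960), Trip4 (0.956) and Fbxo11 (0.950) for Hif1a, and Cdk16 (0.954), Gm20460 (0.945) and Srp68 (0.938) for Slc2a1. Between groups, the osteocyte score was higher in HLU mice by 0.47 (exact permutation p = 0.0696) and the endothelial score by 0.09 (exact permutation p = 0.371). The part of these cell types in the values of Ndrg1, Adm and Epas1 was not tested beyond the fits with marker scores. Among the scores, Pfkfb3 had its largest r with the erythroid score (r = -0.549, permutation p = 0.0277, rho = -0.560, permutation p = 0.0348, limma adjusted p = 0.115), at -0.36 without Control 7 and HLU 2. Among the 68 other pathway genes, only Nrp1, a VEGF co-receptor, had an unadjusted p under 0.05 for its slope on Pfkfb3 (0.45, p = 0.0281, adjusted p = 0.945, r = 0.610).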

How the data were processed

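RNA from femoral cortical bone was sequenced in 16 mice, 1 library per mouse, and groups and replicate numbers were taken from the sample labels. The authors prepared TruSeq v2 libraries and deposited 1 file of RPKM values per mouse. The submitters' processing notes name mm9, TopHat2 and DESeq2, and the annotation, the counting tool and the gene lengths are not given in the sources used here. RPKM corrects for length and library size but for no other difference between libraries. DESeq2 and other count models were not used, since the deposited unit is RPKM. The 10 genes, Pfkfb3 and all gene lists were chosen with earlier results of these data known.

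A filter on the mean of the 16 mice, set at 0.5 RPKM, left 16973 of 36829 features. Group differences were fitted with limma (version 3.58.1, R 4.3.3) on log2(RPKM + 0.1), unweighted and with a variance trend, and p-values were adjusted by Benjamini-Hochberg across those features. Each of the 7 genes was in addition given an exact permutation p, two-sided, from the 12870 ways to split 16 mice into 8 and 8, which cannot go below 0.000155. Relations between mice used values centred on group means with 100000 permutations within groups, and exact permutation over 40320 orders in 1 group, run in Python (3.11.15; packages pandas 2.3.3, scipy 1.17.1, numpy 2.4.6). Figures were drawn with matplotlib 3.10.9. A gene was called at an adjusted p under 0.1, or, unadjusted, at a p under 0.05, each with at least 1.2-fold for group differences. Intervals cover 95%.

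Whole reads were recovered for 16973 of the 16973 features kept (within 0.001 reads), which gave the reads behind each value. Reads are not independent molecules. Positions, overlapping genes and GC content came from GENCODE M21 on GRCm38, not the build of the alignment. For GC adjustment, a smooth curve of each library's deviations against transcript GC content was taken off for the 15449 features with a unique symbol and a GC value (98.1% of those with a unique symbol). Tested on simulated data drawn from the 16973 features' own means and spreads, the group comparison recovered 120 of 200 features changed 2-fold with 8 false calls at an adjusted p of 0.1. The simulated noise was independent between features. In these libraries 45.5% of features followed the GC slope together, so those counts may not hold for them. Genes named are the 10 of the rule and Pfkfb3, the highest and lowest log2 fold change of each pathway list and any list gene with an unadjusted call, and the 3 features most like each of the 7 genes. Nothing in the labels links mice beyond their group, and p-values measure the spread between these mice.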

Additional observations from a re-analysis of the deposited data

Results flagged for a closer look

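In HLU mice, the Ankrd37 level of mouse 5 was 2.20 RPKM, far from the next highest HLU mouse at 1.11 RPKM. The gap to the nearest mouse was 0.717 of the group's range of values, more than Dixon's 95% limit allows for 8 values. A gap past that limit, of whatever size, occurs by chance in about 1 in 20 groups. Each of the 7 genes was examined at both ends in both groups. The value rests on 50 reads in the smallest HLU library (7838277 reads), and the same mouse also had the highest Ndrg1 (28.9 RPKM) and Pfkfb3 (25.1 RPKM) of the 16. The part of library size in it was not tested.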

How the results depend on the processing

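The fits were repeated under 13 other settings (GC adjustment was chosen after seeing the data) and without each of the 16 mice in turn. The number of hypoxia genes with an unadjusted call between groups was 0 in all but 1 of them, out of 7 genes or, with a minimum of 2 RPKM, out of the 4 that passed it. With the erythroid and neutrophil scores as covariates it was 2 (Adm at 0.92 and Hif1a at -0.28), with 3679 features called and 352 past the adjusted threshold, against 996 and 0 as reported. No filter on low values and no variance trend each gave 1 feature past it. Without 1 mouse, calls between groups ran from 588 to 1748 (649 without Control 6, 659 without Control 7, 629 without HLU 1, 588 without HLU 7, 1748 without HLU 2), with 0 to 1 past the adjusted threshold. The shift of all features was -0.10 as deposited, -0.01 with median-of-ratios scaling and -0.01 with GC adjustment, and the share of calls that were higher went from 18.9% to 49.2% and 50.4%. Some log2 fold changes changed sign. Hif1a was at 0.062 with median-of-ratios scaling, 0.10 with quantile normalization and 0.070 with GC adjustment. Vegfa and Ankrd37 were at -0.10 and -0.085 with array weights and at -0.10 and -0.20 without the 2 smallest libraries, Ankrd37 was at -0.0080 with voom on recovered reads, and Slc2a1, -0.36 as reported, was at 0.055 with the marker scores. Without 1 mouse they ran from -0.082 to 0.045 for Hif1a, -0.081 to 0.12 for Vegfa and -0.12 to 0.11 for Ankrd37. The cause was not tested.

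The slope on Pfkfb3 depended more on the setting. Against 658 features called as reported, there were 1231 with no filter, 419 with a minimum of 2 RPKM, 1456 with median-of-ratios scaling, 1862 with quantile normalization, 1852 with array weights, 400 with the marker scores, 1742 with GC adjustment and 335 to 1826 without 1 mouse (335 without Control 7, 341 without HLU 3, 419 without HLU 2, 1316 without Control 5, 1826 without Control 3). Of the 7 genes, 1 was called with each scaling, 2 with GC adjustment and 0 to 1 without 1 mouse (Epas1, without Control 4). Slopes changed sign for Vegfa (-0.085) and Ndrg1 (-0.12) with the marker scores, for Ndrg1 (-0.14) and Ankrd37 (-0.35) without the 2 smallest libraries, and for Slc2a1 with quantile normalization (0.000763) and GC adjustment (0.0049). Without 1 mouse they ran from -0.25 to 0.47 for Vegfa, -0.58 to 0.064 for Slc2a1, -0.22 to 0.28 for Ndrg1 and -0.45 to 0.36 for Ankrd37.

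For the difference of slopes, 342 features were called as reported, 1038 with no filter, 196 with a minimum of 2 RPKM, 970 with median-of-ratios scaling, 674 with quantile normalization, 3791 with array weights, 1066 without the 2 smallest libraries, 1481 with GC adjustment and 174 to 2928 without 1 mouse (174 without Control 3, 1351 without HLU 5, 2928 without Control 5), with 0 to 1 past the adjusted threshold. Of the 7 genes, 1 was called as reported, 3 with a pseudocount of 1 and with array weights, 2 with each scaling and without the variance trend, 4 with GC adjustment, 0 with the marker scores and without the 2 smallest libraries, and 0 to 3 without 1 mouse. The Hif1a difference was -0.10 as reported, 0.13 with the marker scores, 0.050 with GC adjustment and -0.57 to 0.066 without 1 mouse.

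The groups share replicate numbers, but same-numbered mice did not as a rule deviate together (r from -0.17 to 0.51, and only number 4 matched its own best). The labels do not say whether the numbers pair the mice, and these correlations cannot settle it. With the replicate number as a block, calls between groups were 1039, on Pfkfb3 558 and for the difference of slopes 380, with 2 of the 7 genes called for the last (Adm and Ndrg1). The slope on Pfkfb3 changed sign in that block fit for Hif1a (-0.25), Adm (0.39), Slc2a1 (0.94) and Ankrd37 (-0.27), as did the slope difference of Hif1a (0.051). A skeletal muscle score as a covariate was not run, since its markers were not analysed here. Depth limits Adm and Ankrd37 most, at 8 to 77 and 13 to 66 reads per mouse.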
